A study of Mus musculus with 12 samples.

Results

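The 7 genes followed here encode subunits of voltage-gated sodium channels, measured through the prefrontal cortex (PFC) of conventional and germ-free mice: Scn1a, Scn2a, Scn3a, Scn8a, Scn2b, Scn3b and Scn4b. They are 7 of the 41388 genes in the count table and hold 4 pore-forming alpha subunits and 3 beta subunits. They were chosen by gene family, with earlier values of Scn4b in these same groups already known, so their differences between groups are given as a description and are not independent evidence. Every library came from medial PFC that was dissected by hand from fresh brains of male Swiss Webster mice at 10 weeks of age. The groups were conventionally raised mice (CON, 4 libraries), germ-free mice raised without microbes in isolators (GF, 4 libraries), and mice that were germ-free until postnatal day 21 and were then housed beside CON mice, which exposed them to environmental microbes (exGF, 4 libraries). No mouse carried an engineered allele or received a drug. Each library pooled RNA from several animals, errors therefore describe pools and not single mice, and the exGF libraries (GFR1 to GFR4) carry numbers that could not be tied to single samples. The design asks whether the absence of microbes, lifelong or until weaning, goes with a different level of a transcript in the PFC.

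A voltage-gated sodium channel opens when the membrane depolarizes and carries the inward current that starts and propagates the action potential. One alpha subunit forms the pore, the voltage sensors and the inactivation gate. The beta subunits are small proteins that cross the membrane once, adjust gating and surface density, and carry an immunoglobulin fold through which they also act in cell adhesion. In the cortex, Scn1a is best known from fast-spiking inhibitory interneurons and is the main gene of Dravet syndrome, whereas Scn2a and Scn8a serve the axon initial segment of excitatory neurons, with Scn8a prevailing there and at nodes of Ranvier in the mature brain. Scn3a is expressed most strongly before birth. The proteins of Scn2b and Scn4b bind the alpha subunit through a disulfide bond and that of Scn3b binds without one. The tail of the Scn4b protein can block the open pore, which is linked to the resurgent current of fast-firing neurons.

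In the mouse genome (GRCm38), Scn3a (chr2:65457118-65567627, minus strand), Scn2a (chr2:65620771-65767447, plus strand) and Scn1a (chr2:66270778-66440840, minus strand) lie in 1 cluster. Scn8a stands alone (chr15:100869858-101045938, plus strand). On chromosome 9, Scn3b (chr9:40269217-40291618, plus strand) is separate, whereas Scn2b (chr9:45117782-45130070, plus strand) and Scn4b (chr9:45138395-45154152, plus strand) are neighbours 8324 bp apart on the same strand. No annotated exon of another gene overlapped an exon of the 7. The alpha genes of chromosome 2 resemble each other, and 7.29% of the 31-base words of Scn1a, 9.16% of those of Scn2a and 9.57% of those of Scn3a recur in another gene. For Scn4b the share was 0%.

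Counts on genes ran from 22757169 to 29134760 in CON, from 13280926 to 23465074 in GF and from 22702599 to 28615407 in exGF libraries. The lowest total belonged to GF1, which also had the lowest share of mitochondrial counts (5.68%, against up to 9.80% in GF2). All 7 genes passed the filter on low counts, and the scarcest value was 336 counts (Scn3a in GF1). Neuronal markers were abundant, with the 6 genes of the neuron list summing to between 5474 and 7763 CPM (counts scaled to a common library size). Striatal markers were uneven: their 8 genes summed to 470.5 CPM in CON2 and 451.5 CPM in GFR4, and to between 239.4 and 302.8 CPM in the other 10.

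Levels of different genes were compared per length, as CPM per kilobase of exon. Scn2b was the most abundant of the 7 at 61.6 ± 3.87 CPM per kilobase (SD, n = 12), above every other member in all 12 libraries. Next came Scn2a (30.9 ± 4.01 CPM per kilobase), Scn3b (27.3 ± 2.304), Scn8a (24.8 ± 3.27), Scn4b (15.6 ± 4.45) and Scn1a (12.7 ± 2.46), all per kilobase and over the same libraries. Scn3a was lowest at 2.82 ± 0.52 CPM per kilobase. Some neighbours in this order were not separated in every library: Scn2a exceeded Scn3b in 9, Scn3b exceeded Scn8a in 9 and Scn4b exceeded Scn1a in 8 of 12 libraries. The order depends on the exon length assigned to each gene: with the longest transcript as length, Scn1a reached 16.8 CPM per kilobase and passed Scn4b.

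**Figure D1:**
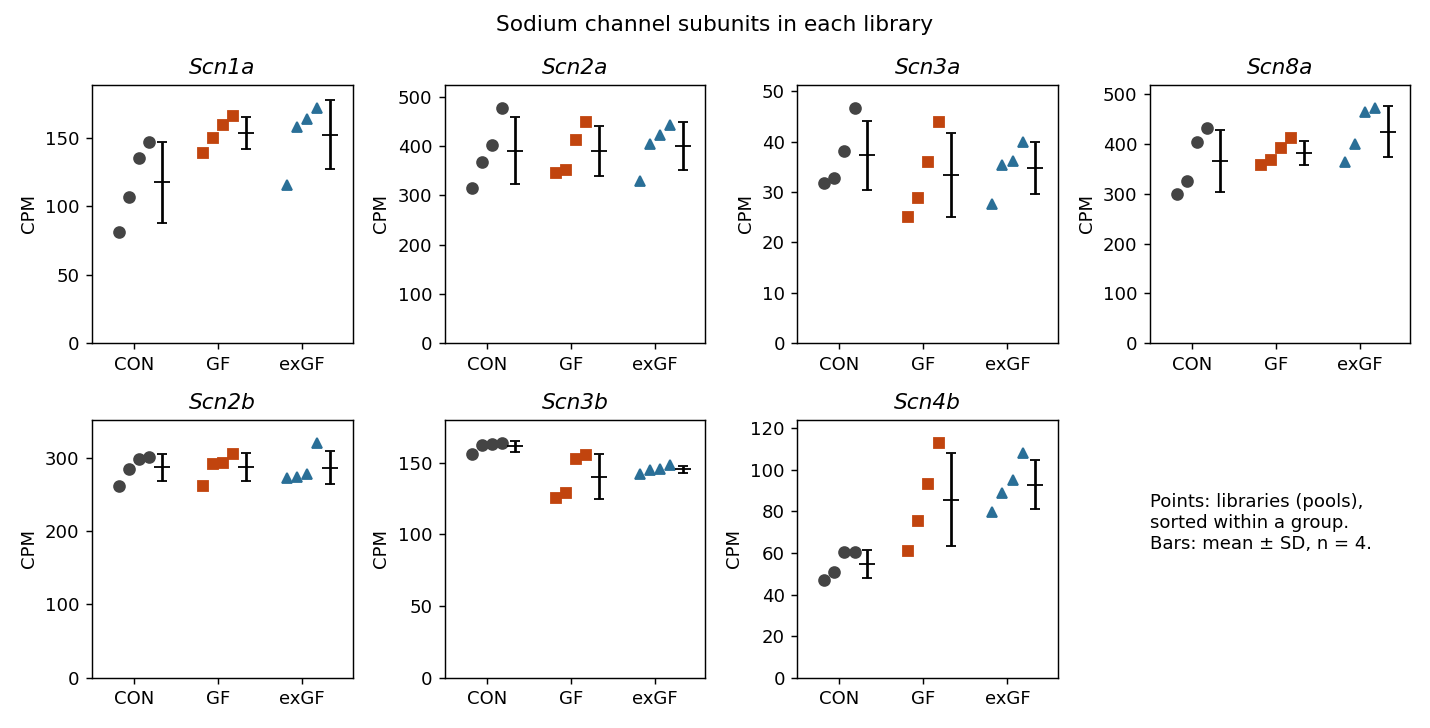
Each panel plots 1 gene's TMM-normalized level (CPM, axis from 0) in the 4 CON, 4 GF and 4 exGF libraries, with points sorted within a group and the mean ± SD beside them. Scn4b lies at 47.1 to 60.4 CPM in CON and at 60.8 CPM or more in every GF and exGF library, Scn3b lies above 155 CPM in every CON library and at or below 155.0 CPM in the rest, and the other 5 genes overlap between all groups.

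In GF against CON, the quasi-likelihood test of edgeR called 0 of 7 genes (Benjamini-Hochberg adjusted p under 0.1 over 15542 genes) and 0.251% of all genes. At an unadjusted p under 0.05, 3 of 7 stood out (Scn4b, Scn1a and Scn3b), against 1350 of 15542 genes. DESeq2 called Scn4b alone of the 7, among 198 genes in all. In exGF against CON, Scn4b was the 1 gene of 7 called by edgeR, against 0.0696% of 15813 genes, and the same 3 genes had an unadjusted p under 0.05, against 843 genes. There too DESeq2 called Scn4b alone of the 7, among 60 genes in all. In exGF against GF, edgeR called 0 of 7 and 0.0% of all 15569 genes. None of the 7 had an unadjusted p under 0.05 there, against 1035 genes, and DESeq2 called 0 of 7. The median log2 fold change of the 7 was 0.00, 0.03 and 0.05 in these comparisons, beside 0.01, -0.01 and -0.00 over all genes tested. The comparisons of GF and exGF with CON share the same CON libraries. In bulk tissue, fewer cells of a type and less RNA per cell cannot be told apart.

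Normalized levels that did not overlap between groups were counted as well. Between GF and CON, 2 of 7 genes had separate ranges, Scn4b above and Scn3b below, where 5.08% of 16032 genes did. Between exGF and CON the same 2 genes were separate, in the same directions, where 3.29% of genes were. Between exGF and GF all 7 genes overlapped, where 3.37% of genes were separate. With the choice of genes made after such values were known, nothing is read from these counts.

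**Figure D2:**
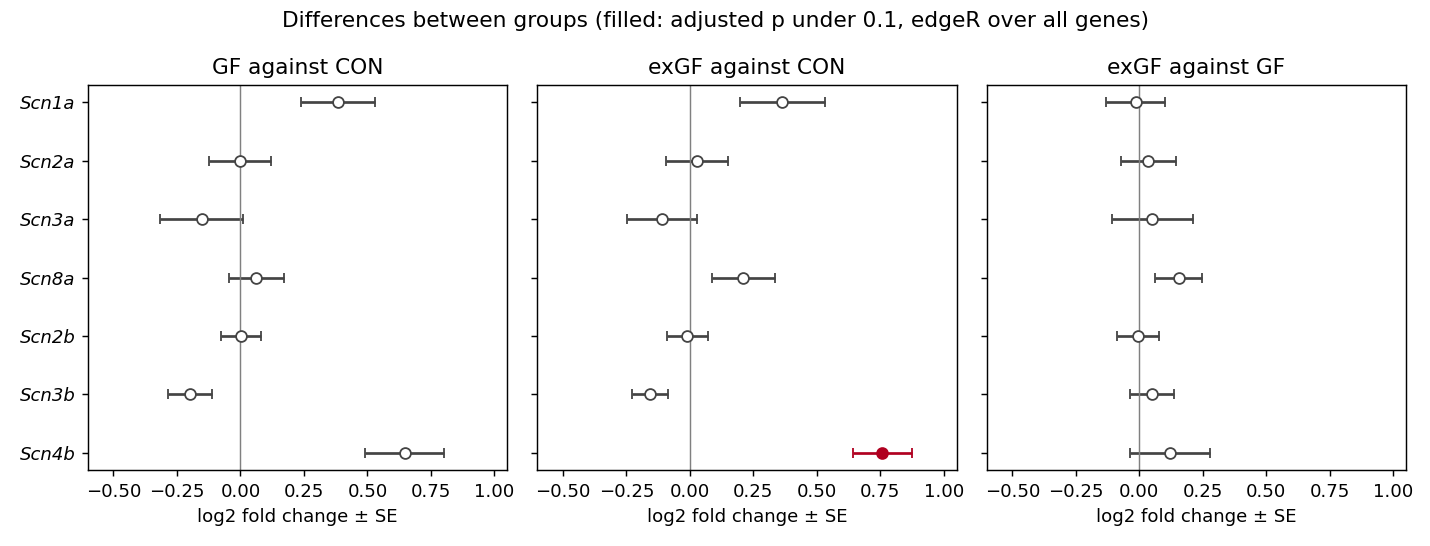
Log2 fold change ± SE of each gene in each pair of groups, from edgeR fits over all genes with n = 4 libraries a group; a filled point marks an adjusted p under 0.1. Scn4b is the farthest from 0 in GF and in exGF against CON (0.65 and 0.76), and in exGF against GF every gene lies within 0.16 of 0.

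Scn1a was the alpha gene with the largest difference from CON. Its levels were 106.7, 81.4, 135.5 and 147.4 CPM in CON1 to CON4, 159.4, 166.4, 139.1 and 150.0 CPM in GF1 to GF4, and 171.7, 164.1, 157.8 and 115.3 CPM in GFR1 to GFR4. The CON libraries were the most scattered, CON2 was the lowest of all 12, GF overlapped CON through CON4, and exGF did so through GFR4. The mean was 117.7 ± 29.7 CPM in CON, 153.8 ± 11.8 CPM in GF and 152.2 ± 25.3 CPM in exGF (SD, n = 4 each). The log2 fold change was 0.38 (SE 0.15) in GF and 0.36 (SE 0.17) in exGF against CON, and neither passed the edgeR test over all genes (Benjamini-Hochberg adjusted p = 0.448 and 0.924). Between exGF and GF it was -0.01 (SE 0.12). Without CON2 the differences from CON were smaller, 0.24 in GF and 0.23 in exGF.

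Scn2a and Scn8a, the alpha genes of the excitatory initial segment, were the most abundant alphas in every group. Scn2a measured 367.7, 315.0, 402.8 and 476.8 CPM in CON1 to CON4, 345.9, 449.9, 352.2 and 412.4 CPM in GF1 to GF4, and 442.1, 423.4, 403.4 and 330.0 CPM in GFR1 to GFR4. The ranges coincided, and the log2 fold change was -0.00 (SE 0.12) in GF and 0.03 (SE 0.12) in exGF against CON. Scn8a measured 326.3, 299.5, 404.6 and 432.8 CPM in CON1 to CON4, 411.9, 391.3, 357.3 and 367.3 CPM in GF1 to GF4, and 399.8, 463.7, 471.9 and 364.6 CPM in GFR1 to GFR4. The 2 highest values were exGF libraries and the 2 lowest were CON libraries, with overlap between all groups. Scn8a had a log2 fold change of 0.06 (SE 0.11) in GF and 0.21 (SE 0.12) in exGF against CON (edgeR, Benjamini-Hochberg adjusted p = 0.911 and 0.952).

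Scn3a, the alpha gene typical of the embryonic brain, was at the bottom of the range throughout. It measured 31.7, 32.7, 38.1 and 46.6 CPM in CON1 to CON4, 25.0, 43.8, 28.9 and 36.0 CPM in GF1 to GF4, and 35.4, 39.8, 36.2 and 27.6 CPM in GFR1 to GFR4. All 3 groups overlapped, and GF held the lowest library as well as the second highest of all. The log2 fold change was -0.15 (SE 0.16) in GF and -0.11 (SE 0.14) in exGF against CON.

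The makeup of the alpha subunits varied less than their levels. Of the length-scaled level summed over the 4 alpha genes, Scn2a held 43.5 ± 2.45%, Scn8a 34.9 ± 2.23%, Scn1a 17.7 ± 1.97% and Scn3a 3.97 ± 0.54% (SD, n = 12). The share of Scn1a was 15.5 ± 1.37% in CON (13.6 to 16.8%), 19.4 ± 0.82% in GF (18.7 to 20.6%) and 18.2 ± 1.18% in exGF (16.8 to 19.7%). In these shares no GF or exGF library overlapped the CON libraries, although the nearest exGF library (16.79%) lay just above the highest CON library (16.76%). The share of Scn3a was 4.45 ± 0.35% in CON and 3.72 ± 0.17% in exGF, again without overlap, and 3.73 ± 0.68% in GF, which overlapped both. The shares of Scn2a and Scn8a overlapped between all groups. The summed alpha level itself was 67.4 ± 12.3, 71.3 ± 5.63 and 74.8 ± 8.85 CPM per kilobase in CON, GF and exGF. These shares rest on the same differences as the levels, in which Scn1a and Scn3a overlapped between all groups. The shares were not tested, and how often such shares separate was not examined.

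**Figure D3:**
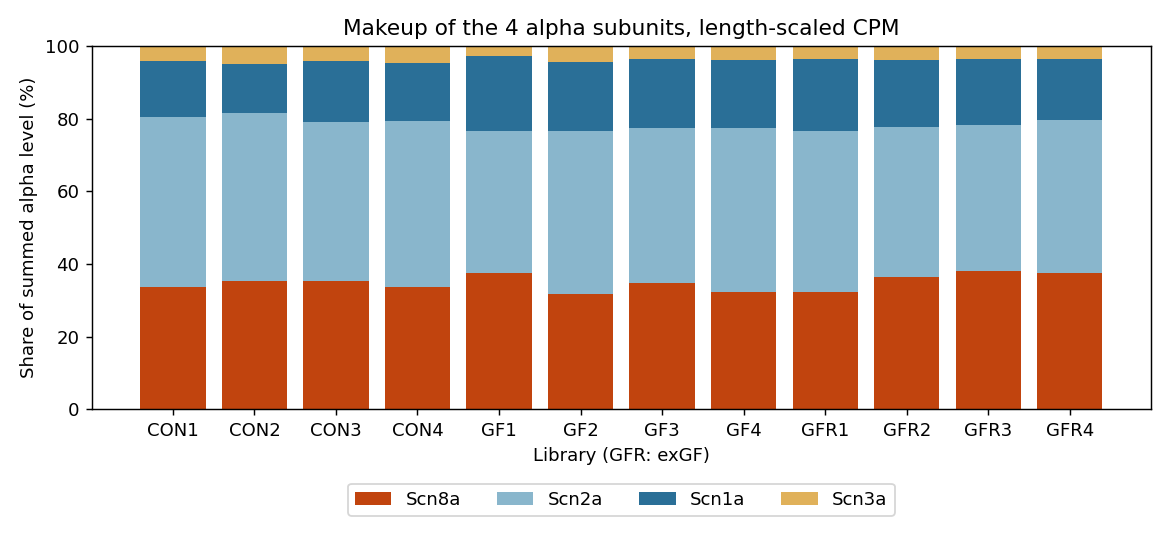
Each bar is 1 library and divides the length-scaled CPM summed over Scn8a, Scn2a, Scn1a and Scn3a into percent shares, from 0 to 100%. Scn2a and Scn8a fill most of every bar, and the Scn1a segment is 13.6 to 16.76% in the CON libraries and 16.79 to 20.6% in the GF and exGF libraries.

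Among the beta subunits, Scn2b had nearly equal means in the 3 groups. It measured 284.8, 261.6, 301.3 and 298.3 CPM in CON1 to CON4, 304.4, 260.6, 291.1 and 293.2 CPM in GF1 to GF4, and 319.7, 278.1, 273.4 and 272.7 CPM in GFR1 to GFR4. The group means were 286.5 ± 18.1, 287.3 ± 18.8 and 286.0 ± 22.6 CPM (SD, n = 4 each). The log2 fold change was 0.00 (SE 0.08) in GF and -0.01 (SE 0.08) in exGF against CON.

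Scn3b was lower in both groups with a germ-free early life, by a small amount. It measured 163.3, 155.8, 162.4 and 163.6 CPM in CON1 to CON4, 125.3, 155.0, 128.6 and 152.2 CPM in GF1 to GF4, and 145.4, 142.2, 145.1 and 148.4 CPM in GFR1 to GFR4. The lowest CON library and the highest GF library were less than 1 CPM apart, the CON and exGF libraries were tightly grouped, and the GF libraries fell into a lower pair (GF1 and GF3) and a higher pair. The mean was 161.3 ± 3.71 CPM in CON, 140.3 ± 15.5 CPM in GF and 145.3 ± 2.55 CPM in exGF. The log2 fold change was -0.20 (SE 0.09) in GF and -0.16 (SE 0.07) in exGF against CON, and neither passed the edgeR test over all genes (Benjamini-Hochberg adjusted p = 0.538 and 0.924). After subtraction of group means, Scn3b tracked total counts over the 12 libraries (Pearson r = 0.66, permutation p = 0.0144, Benjamini-Hochberg p = 0.302 over 21 such relations). Spearman rho was 0.60 (permutation p = 0.0864, Benjamini-Hochberg p = 0.716), and neither passed adjustment. Differences between groups play no part in this relation. Without the 2 libraries farthest from the median of total counts after the same subtraction, r was 0.24.

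Scn4b differed most. It measured 47.1, 60.4, 60.3 and 50.7 CPM in CON1 to CON4, 112.9, 60.8, 93.4 and 75.6 CPM in GF1 to GF4, and 108.0, 88.7, 79.8 and 95.4 CPM in GFR1 to GFR4. Every GF and exGF library exceeded every CON library, but GF2 did so by less than 1 CPM, and the GF libraries spread the most. The mean was 54.6 ± 6.74 CPM in CON, 85.7 ± 22.5 CPM in GF and 93.0 ± 11.9 CPM in exGF (SD, n = 4 each), so the GF mean was 1.57 times and the exGF mean 1.70 times that of CON. The log2 fold change was 0.76 (SE 0.11) in exGF against CON (edgeR, Benjamini-Hochberg adjusted p = 0.0307). It was 0.65 (SE 0.16) in GF against CON, which was not called (adjusted p = 0.160, edgeR, Benjamini-Hochberg), and 0.12 (SE 0.16) in exGF against GF (adjusted p = 0.886). Measured against its chromosomal neighbour, the Scn4b level per kilobase was 17.9 ± 2.83% of that of Scn2b in CON, 27.6 ± 5.81% in GF and 30.3 ± 2.36% in exGF.

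The call of Scn4b rested on the analysis settings. In exGF against CON it was called in 14 of 16 alternatives (log2 fold change 0.69 to 0.83, adjusted p 1.77e-06 to 0.136 by edgeR or DESeq2) and was lost without CON1 (adjusted p = 0.136) and in a single edgeR fit of all 12 libraries (adjusted p = 0.112). In GF against CON it was called in 3 of 16 alternatives (log2 fold change 0.48 to 0.78, adjusted p 0.00475 to 0.425): without a filter on low counts (adjusted p = 0.00475), with DESeq2 (adjusted p = 0.0185) and without GF2 (adjusted p = 0.0336).

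Scn4b is a gene of several cell types and is abundant in the striatum. The striatal list summed to 239.4 to 470.5 CPM in CON, 260.9 to 284.6 CPM in GF and 260.0 to 451.5 CPM in exGF, so the groups overlapped and 0 of its 8 genes were called in any comparison by edgeR. At an unadjusted p under 0.05 none of the 8 stood out in GF or exGF against CON, and 2 did in exGF against GF. Without CON2 and GFR4, the libraries with the highest striatal sums, the log2 fold change of Scn4b in exGF against CON was 0.82 (SE 0.13, edgeR, Benjamini-Hochberg adjusted p = 0.0702), an alternative chosen after the data had been seen.

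Of the 5 markers of parvalbumin interneurons, the fast-spiking inhibitory cells, edgeR called 0 in any comparison, and Syt2 was the 1 with differences near those of Scn4b. The 5 genes summed to 499.0 to 530.6 CPM in CON, 561.1 to 598.1 CPM in GF and 549.3 to 599.5 CPM in exGF, with both groups above CON in every library. Of single genes, 5.08% in GF and 3.29% in exGF had ranges separate from CON, in either direction. Gad1 had the most counts of the 5 in every library and weighs most in the sum. In CON1 it had 6849 counts, beside 3586 of Kcnc1, 939 of Pvalb, 646 of Syt2 and 324 of Tac1. Syt2, a calcium sensor of fast transmitter release at their terminals, measured 26.5, 22.0, 29.2 and 26.9 CPM in CON1 to CON4, 51.5, 29.3, 45.1 and 40.6 CPM in GF1 to GF4, and 43.8, 47.0, 40.1 and 34.5 CPM in GFR1 to GFR4. As with Scn4b, GF2 was the lowest GF library and lay just above the highest CON library. Syt2 had a log2 fold change of 0.67 (SE 0.15) in GF and 0.65 (SE 0.12) in exGF against CON (edgeR, Benjamini-Hochberg adjusted p = 0.137 and 0.111). Pvalb, the calcium buffer that defines these cells, had a log2 fold change of 0.41 (SE 0.18) in GF and 0.08 (SE 0.15) in exGF against CON. Gad1, which makes the transmitter GABA, had 0.15 (SE 0.08) and 0.13 (SE 0.08), and the potassium channel gene Kcnc1 had 0.11 (SE 0.10) and 0.14 (SE 0.10). Tac1, a neuropeptide precursor, lay the other way at -0.10 (SE 0.28) and -0.19 (SE 0.34). Its counts were highest in CON2 (774) and GFR4 (783), the libraries with the highest striatal sums. The part of striatal tissue in the level of Tac1 was not tested. At an unadjusted p under 0.05, 2 of 5 (Syt2 and Pvalb) stood out in GF and 1 of 5 (Syt2) in exGF against CON.

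Markers of other cell types differed between GF and CON in several lists. The 7 markers of myelinating oligodendrocytes summed to 2053 to 2540 CPM in CON, 3181 to 5351 CPM in GF and 2033 to 3423 CPM in exGF, and 5 of 7 were called higher in GF and 0 of 7 in exGF against CON by edgeR. All 7 had an unadjusted p under 0.05 in GF, and none in exGF. The 6 neuronal markers summed to 5474 to 6415 CPM in CON, 6615 to 7550 CPM in GF and 6014 to 7763 CPM in exGF, which overlapped CON. In GF and in exGF against CON edgeR called 0 of 6 of them, with 4 and 2 at an unadjusted p under 0.05. The sum over 6 markers of layer 5 and 6 projection neurons lay the other way. It was 269.3 to 294.9 CPM in CON, 205.1 to 259.2 CPM in GF, without overlap, and 222.3 to 290.8 CPM in exGF. Of the exGF libraries GFR4 alone (290.8 CPM) overlapped CON, and GFR1 to GFR3 lay below CON at 237.8, 231.8 and 222.3 CPM. Of the 6 genes, Crym alone was called lower in GF (log2 fold change -0.53, SE 0.09, edgeR, Benjamini-Hochberg adjusted p = 0.0242). Bcl11b (0.13, SE 0.13) and Etv1 (0.07, SE 0.15), 2 of the 6, lay above 0 in GF. The sum without Crym was not examined. In exGF 0 of 6 were called, with 1 (Crym) at an unadjusted p under 0.05. Meningeal markers summed to 57.7 to 75.0 CPM in CON and to less in every GF (38.3 to 48.8 CPM) and exGF library (43.8 to 53.6 CPM), and microglial markers summed to 248.6 to 292.3 CPM in CON, 217.6 to 244.6 CPM in GF and 216.7 to 231.9 CPM in exGF. In GF against CON edgeR called 1 of 4 meningeal markers (Col1a2, lower) and 0 of 5 microglial markers, with 3 and 2 at an unadjusted p under 0.05. In exGF against CON it called 0 of both, with 3 and 4 at an unadjusted p under 0.05. Over all genes tested, edgeR called 0.251% in GF and 0.0696% in exGF against CON. An unadjusted p under 0.05 was held by 1350 of 15542 and 843 of 15813 genes. Of single genes, 5.08% in GF and 3.29% in exGF had ranges separate from CON, and no such share was computed for sums of markers. No marker of any of these lists was at 0 in all libraries. The part of any of these cell types in the levels of Scn4b, Scn3b and Scn1a was not tested.

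**Figure D4:**
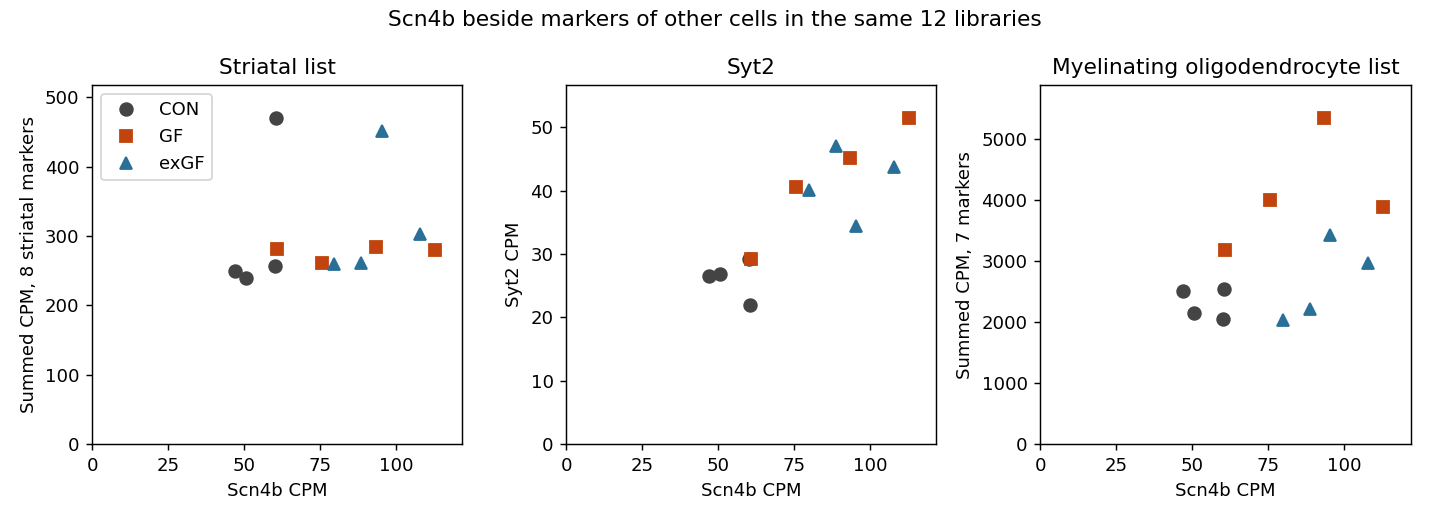
Each point is 1 library, with Scn4b (CPM) on the horizontal axis and, on the vertical axes, the summed CPM of 8 striatal markers, the CPM of Syt2, and the summed CPM of 7 myelinating oligodendrocyte markers. The striatal sum is 239.4 to 302.8 CPM at every level of Scn4b except in CON2 and GFR4 (470.5 and 451.5 CPM), and Syt2 is above the CON libraries in every GF and exGF library but lowest in CON2 (22.0 CPM), which has the highest Scn4b of CON. The oligodendrocyte sum is above CON in every GF library, but GFR4 of exGF (3423 CPM) exceeds GF2 (3181 CPM).

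Within groups, 3 of the 6 pairs of alpha genes varied together by Pearson r, and 2 of 6 by Spearman rho. The threshold for pairs was a Benjamini-Hochberg p under 0.05, stricter than the 0.1 used for calls between groups. After subtraction of group means, so that differences between groups play no part, the 21 pairs of members were correlated over the 12 libraries with 100000 permutations within groups. Scn2a and Scn3a varied together (Pearson r = 0.89, permutation p = 0.00115, Benjamini-Hochberg p = 0.0194; Spearman rho = 0.83, permutation p = 0.00463, Benjamini-Hochberg p = 0.0486). Scn1a varied with Scn2a (r = 0.88, permutation p = 0.00185, Benjamini-Hochberg p = 0.0194; rho = 0.84, permutation p = 0.00116, Benjamini-Hochberg p = 0.0244). Scn1a also varied with Scn8a by Pearson r (0.87, permutation p = 0.00591, Benjamini-Hochberg p = 0.0414), but not after adjustment by Spearman rho (0.85, permutation p = 0.0193, Benjamini-Hochberg p = 0.135). Without the 2 libraries farthest from the median of the gene named first, r was 0.92, 0.75 and 0.75 in these pairs. The other gene of a pair played no part in that choice. The other 3 alpha pairs did not pass 0.05, although Scn1a and Scn3a would pass 0.1 by Pearson r. Scn1a and Scn3a had r = 0.64 (permutation p = 0.0182, Benjamini-Hochberg p = 0.0956), Scn2a and Scn8a 0.68 (permutation p = 0.0442, Benjamini-Hochberg p = 0.155) and Scn3a and Scn8a 0.55 (permutation p = 0.0628, Benjamini-Hochberg p = 0.182). Their rho was 0.62, 0.63 and 0.57 (permutation p = 0.0290, 0.0665 and 0.0443, Benjamini-Hochberg p = 0.152, 0.233 and 0.186), and r without the 2 farthest libraries was 0.575, 0.40 and 0.84. Such closeness as in the first 3 pairs is not rare in these libraries: between 0.998% and 2.4% of 16031 genes followed 1 of these genes at least as closely as the other member of the pair did.

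The beta genes did not take part in any pair past the threshold. Scn4b and Scn3b ran in opposite directions within groups (r = -0.79, permutation p = 0.0444, Benjamini-Hochberg p = 0.155, and rho = -0.68, permutation p = 0.102, Benjamini-Hochberg p = 0.240). Without the 2 libraries farthest from the median of Scn3b, r was -0.49. In GF Scn4b and Scn3b mirrored each other, with GF1 and GF3 highest for Scn4b and lowest for Scn3b. Scn4b and its neighbour Scn2b had r = 0.56 (permutation p = 0.0780, Benjamini-Hochberg p = 0.182, and rho = 0.56, permutation p = 0.103, Benjamini-Hochberg p = 0.240). Without the 2 libraries farthest from the median of Scn2b, r fell to 0.28. Also after subtraction of group means, none of the 21 relations of the 7 genes with total counts, mitochondrial share or share of multiply aligned pairs passed adjustment.

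The genes most like each member were sought among the 16031 other genes that passed the filter, as Pearson r of log2 CPM over the 12 libraries, differences between groups included. For Scn4b the highest were Ankdd1b (r = 0.96), Gm29367 (0.91), Dpy19l1 (0.91), 4732491K20Rik (0.89) and Parva (0.89), which encodes an actin-binding partner of integrin-linked kinase. Ankdd1b measured 10.5, 12.3 and 12.7 CPM in CON, GF and exGF on average. For the other members the closest were Zc3h12b for Scn1a (r = 0.95), Dennd4a for Scn2a (0.97), Myo9a for Scn3a (0.95), Ptpn11 for Scn2b (0.96) and Krt77 for Scn3b (0.94). The gene closest to Scn8a was Ank3 (r = 0.96), which encodes ankyrin-G, the scaffold that anchors sodium channels at the initial segment and at nodes. These are the highest of many values and carry no test.

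A further 6 channel genes were compared. In each comparison 3 of them were tested and 0 were called by edgeR, 0 had an unadjusted p under 0.05 and DESeq2 called 0. Nalcn, the sodium leak channel, differed by 0.10 (SE 0.11) in GF and 0.03 (SE 0.11) in exGF against CON on the log2 scale. Scn7a and Scn9a were scarce, with means of 5.64 and 4.19 CPM over 12 libraries. The log2 fold change of Scn7a was -0.25 (SE 0.25) in GF and -0.04 (SE 0.19) in exGF against CON, and that of Scn9a was 0.09 (SE 0.18) and 0.12 (SE 0.18). Scn4a of skeletal muscle and Scn10a and Scn11a of sensory neurons had at most 2, 8 and 5 counts in any library and were not tested.

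The partner list held 15 genes for scaffolds of the initial segment and node, adhesion proteins, channel-binding fibroblast growth factor homologues, ubiquitin ligases and the proteases that cut beta subunits. All 15 were tested, and 0 were called in any comparison by edgeR, 0 had an unadjusted p under 0.05 and DESeq2 called 0. Their median log2 fold change was 0.01 in GF and 0.01 in exGF against CON, and 0.07 in exGF against GF. The smallest p in each comparison belonged to Fgf12, which encodes a channel-binding factor (GF against CON, 0.21, SE 0.12), Cntnap1, which encodes a protein of the paranodal junction (exGF against CON, 0.22, SE 0.11), and Sptbn4, which encodes the spectrin of initial segments and nodes (exGF against GF, 0.25, SE 0.16). Their Benjamini-Hochberg adjusted p from edgeR was 0.657, 0.946 and 0.764. With 1 library left out at a time, these log2 fold changes ranged from 0.13 (without GF2) to 0.31 for Fgf12, from 0.14 (without CON2) to 0.29 for Cntnap1 and from 0.13 (without GFR2) to 0.38 (without GFR1) for Sptbn4.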

How the data were processed

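The authors trimmed paired reads of polyA-selected, stranded libraries (Trimmomatic 0.32), aligned them to GRCm38.p3 with STAR, and counted pairs per Ensembl gene with HTSeq 0.6.0 without regard to strand. The table they deposited holds raw counts. Rows that name no gene were left out (4.57 to 7.31% of pairs outside genes, 1.10 to 1.32% ambiguous, 13.0 to 19.2% multiply aligned). The 4 GFR columns were taken as exGF because no other samples remained.

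R 4.3.3 and edgeR 4.0.16 were used: filterByExpr, TMM and the quasi-likelihood test for each pair of groups, with Benjamini-Hochberg adjustment over all genes and calls at an adjusted p under 0.1, the study's threshold. The steps were tested on simulated data. CPM used TMM over 12 libraries and log2 CPM a prior count of 1. Between libraries of a group the chi-square averaged 7.10 to 29.3 per gene (1 is sampling noise), so none was a duplicate. Alternatives were RLE, other filters, DESeq2 1.42.0, robust and joint fits, a replicate block, a threshold of 0.05 and omission of each library.

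Members, partner genes and markers were chosen with earlier results of these data known. Beyond the members, the text names tested family genes, the partner with the smallest p in each comparison and the genes of highest likeness. Syt2, Pvalb and other single markers were picked after their values were seen. Results of 2 genes are not reported here.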

Additional observations from a re-analysis of the deposited data

Results flagged for a closer look

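In 2 of 33 combinations of gene and group a library stood apart from the other 3, its gap to the nearest of them exceeding Dixon's critical share of the group's range. Chance alone gives this in about 5% of such groups. Scn2b in exGF reached 319.7 CPM in GFR1, against 272.7 to 278.1 CPM in the other exGF libraries. Scn3b in CON was 155.8 CPM in CON2, against 162.4 to 163.6 CPM in the other CON libraries. CON2 also had the highest striatal sum (470.5 CPM), and the part of this in the level of Scn3b was not tested.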

How the results depend on the processing

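Each of the 7 genes had 336 counts or more in every library. GF1 was the shallowest library, and the effect of depth or of the number of pools on the precision was not tested. Scn4b kept its direction against CON under every alternative run, and Scn3b and Scn1a did so too without passing any. Leaving out 1 library, Scn1a ranged from 0.24 (without CON2) to 0.51 in GF and from 0.23 (without CON2) to 0.49 in exGF against CON. In GF against CON, 1 member (Scn4b) was called without a filter and 1 with DESeq2, and all genes called numbered 221 and 198. In exGF against CON, 0 members were called in the single fit of 12 libraries, and all genes called were 48 without a filter, 7 with at least 10 counts in every library, 60 with DESeq2 and 17 without CON2 and GFR4, a choice made after the data had been seen. In exGF against GF all genes called were 32 without a filter, 21 with DESeq2 and 2 in the single fit. Leaving out 1 library gave 0 to 1 members called in GF against CON (1 without GF2) and 0 to 1 in exGF against CON (0 without CON1). It gave 27 to 60 genes in GF against CON and 0 to 7 in exGF against GF, where GFR1 left out gave 7. The cause was not tested.

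Values that turned sign were near 0. In GF against CON, Scn2b was -0.0015 with RLE, -0.014 without a filter, -0.0087 with the stricter filter and -0.0018 with DESeq2. In exGF against CON, Scn2b was 0.0028 without a filter and Scn7a 0.014 without CON2 and GFR4. In exGF against GF, Scn2b was 0.0047 with the stricter filter. Leaving out 1 library, log2 fold changes in GF against CON ranged from -0.092 to 0.11 for Scn2a, -0.023 to 0.15 for Scn8a, -0.038 to 0.048 for Scn2b and -0.027 to 0.18 for Scn9a. In exGF against CON the ranges were -0.059 to 0.13 for Scn2a, -0.17 to 0.012 for Scn3a, -0.054 to 0.030 for Scn2b, -0.13 to 0.13 for Scn7a and -0.043 to 0.12 for Nalcn. In exGF against GF they were -0.077 to 0.098 for Scn1a, -0.016 to 0.12 for Scn2a, -0.052 to 0.21 for Scn3a, -0.064 to 0.030 for Scn2b, -0.014 to 0.29 for Scn4b, -0.031 to 0.099 for Scn9a and -0.14 to 0.019 for Nalcn.

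With the longest transcript as length, levels were 16.8 (Scn1a), 44.0 (Scn2a), 3.68 (Scn3a), 34.2 (Scn8a) and 35.9 (Scn3b) CPM per kilobase. CON and GF share replicate numbers. After subtraction of group means, samples of the same number correlated by -0.05 to 0.03 over 16032 genes. Samples of different numbers correlated by -0.081 to 0.099. No pairing by number was visible, but so few pairs cannot exclude one. With the replicate number as a block, 0 members and 51 genes were called in GF against CON, Scn4b was 0.62 (edgeR, Benjamini-Hochberg adjusted p = 0.266) and Scn2a was 0.0049.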
